A study of Homo sapiens with 9 samples.

Results

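Chromosome 19 carries the densest groups of zinc finger genes in the human genome, and their RNA levels were compared here across the 3 groups of a METTL3 knockdown experiment. Members were the protein-coding genes on chromosome 19 whose symbol is ZNF followed by digits and at most 1 letter, with a mean of at least 1 CPM (counts scaled to the size of each library) over all libraries. Of 246 such symbols, 146 reached this level and 100 did not, and 71 of the latter stayed under 0.1 CPM. The last genes to be included were ZNF441 at a mean of 1.02 CPM and ZNF836 at 1.04 CPM, and the nearest left out were ZNF585B at 0.999 CPM and ZNF816 at 0.996 CPM. All 146 members were among the 19674 genes tested, from 60649 genes in the count table.

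The cells were OVCAR5, an epithelial ovarian cancer line, transduced with lentivirus, selected with puromycin, expanded as stable lines and sequenced as poly(A) RNA. The labels name 3 libraries NC, 3 libraries SM2 and 3 libraries SM4 without spelling the names out. The study describes a knockdown of METTL3, the methyltransferase that places N6-methyladenosine on RNA, against a control. The labels do not say whether a line was 1 clone or whether the libraries of a group came from separate cultures, so p-values measure only the spread between these libraries. The source field of the SM4 libraries carries other OVCAR names although their cell line field reads OVCAR5.

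Total counts ranged from 44103272 to 63693728 per library, so that 1 CPM stood for 44.1 to 63.7 counts. SM2 replicate 3 stood apart, with a chi-square per degree of freedom of 16 and 13.4 against the other SM2 libraries, where all other pairs within a group gave 4.14 to 6. All 6 epithelial markers examined were at 1 CPM or more, against 1 of 5 fibroblast, 1 of 5 immune and 1 of 4 endothelial markers. The summed endothelial markers were 5.41 to 5.85 CPM in NC, 7.79 to 8.90 CPM in SM2 and 13.1 to 15.2 CPM in SM4, and the summed immune markers were 35.4 to 38.7, 50.3 to 54.0 and 31.3 to 33.7 CPM. These sums moved with the groups, and their part in the results below was not tested.

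METTL3 (ENSG00000165819.12, chr14:21498133-21511342, GRCh38) was at 36.2, 34.4 and 36.6 CPM in NC, at 37.0, 39.8 and 40.0 CPM in SM2 and at 60.6, 57.5 and 62.4 CPM in SM4. No SM2 or SM4 library was below an NC library. The log2 fold change was 0.12 in SM2 (adjusted p = 0.12) and 0.75 ± 0.0539 (SE) in SM4 (adjusted p = 2.21e-09, edgeR quasi-likelihood test with Benjamini-Hochberg adjustment over all tested genes). It was also higher in SM4 than in SM2 by 0.63 ± 0.0538 (adjusted p = 7.45e-08), so that with SM4 as the reference METTL3 would be the lower one in both NC and SM2. The labels do not say which group is the control, and METTL3 does not single out NC as one. The study reports METTL3 RNA as lower in both of its knockdowns than in their control. Among the groups here, that order holds only with SM4 as the reference. Every direction below is therefore that between the libraries so labelled, not of knockdown against control. Were SM4 the control, SM2 against NC would hold no control libraries, and the signs of both comparisons with SM4 would turn. All adjusted p-values below come from this same fit, and "called" means an adjusted p below 0.05.

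Most zinc finger proteins of this chromosome are built of tandem C2H2 fingers, each a short loop held by a zinc ion between 2 cysteines and 2 histidines, that read DNA. Many carry at their start a KRAB domain, which binds the corepressor TRIM28, and TRIM28 brings in the histone methyltransferase SETDB1, which marks chromatin as silent. The genes arose by repeated tandem duplication, so neighbours are often near copies of each other, and many bind retrotransposons. By a pattern search of the translated coding sequence, 116 members matched a KRAB A box and 30 did not. Below, a member without the box is one that did not match, which does not show that the domain is absent. The median number of fingers was 11, with a range of 1 to 26.

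The coding units below show this build in members on which the results turn. Each is the first unit in that gene's transcript (GENCODE v44, GRCh38) that matches a finger followed by its linker, 81 bases, read 5′ to 3′ on the coding strand, with the codons of the 2 cysteines and 2 histidines in capitals. ZNF358, without a KRAB box and with a unit of 71.6% GC, was higher than NC in both SM2 and SM4, while ZNF121, without a KRAB box and with a unit of 35.8% GC, was lower in SM2.
ZNF358, chr19:7520035-7520115, plus strand: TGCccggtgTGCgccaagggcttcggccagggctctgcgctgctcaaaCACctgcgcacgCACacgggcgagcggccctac
ZNF121, chr19:9566597-9566677, minus strand: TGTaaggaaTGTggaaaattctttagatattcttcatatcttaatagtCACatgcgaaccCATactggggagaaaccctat
ZNF440, chr19:11831864-11831944, plus strand: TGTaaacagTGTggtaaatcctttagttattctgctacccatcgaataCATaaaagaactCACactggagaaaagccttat
ZNF431, chr19:21183003-21183083, plus strand: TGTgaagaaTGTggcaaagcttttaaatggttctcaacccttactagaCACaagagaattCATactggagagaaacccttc
ZNF114, chr19:48286540-48286620, plus strand: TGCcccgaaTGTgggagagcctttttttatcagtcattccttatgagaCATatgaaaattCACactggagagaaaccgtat

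The unit of ZNF358 shared 48.1% to 51.9% of its bases with the others, whereas the units of ZNF121, ZNF440, ZNF431 and ZNF114 shared 63.0% to 71.6% with each other. The last 3 of the listed genes are KRAB members. The next lines give the 39 bases that code for the core of their A box, with the codons of an aspartate and valine pair and of a glutamate and tryptophan pair in capitals, both conserved in this domain.
ZNF440, chr19:11830295-11830333, plus strand: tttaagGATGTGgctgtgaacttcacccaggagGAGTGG
ZNF431, chr19:21166347-21166385, plus strand: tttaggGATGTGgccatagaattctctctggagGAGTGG
ZNF114, chr19:48282383-48282421, plus strand: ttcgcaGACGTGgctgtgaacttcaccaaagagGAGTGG

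The members were low in these cells. Per kb of exon, their median level was 1.01 CPM, against 6.33 CPM per kb over 12079 protein-coding genes with a mean of at least 1 CPM and 9.23 CPM per kb over the 681 other such genes of chromosome 19. Together they took 0.139% to 0.140% of counts in NC, 0.132% to 0.133% in SM2 and 0.136% to 0.140% in SM4. In summed level this was 1390 to 1410 CPM in NC, 1310 to 1338 CPM in SM2 and 1367 to 1389 CPM in SM4, and all 3 SM2 libraries lay below the other 6. In bulk RNA, fewer cells with a transcript and less transcript per cell cannot be told apart.

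ZNF146, a protein made of fingers with no KRAB box, was the highest member, at 31.8 CPM per kb of exon. Its libraries held 140.6, 146.8 and 136.4 CPM in NC, 138.4, 126.4 and 125.2 CPM in SM2 and 122.7, 126.8 and 121.7 CPM in SM4. All SM4 libraries were below all NC libraries, while SM2 overlapped both. It fell in SM4 (log2 fold change -0.19 ± 0.0476, adjusted p = 0.00578) and was not called in SM2 (-0.12, adjusted p = 0.0787). Next in level per kb came ZNF787 with 18.7, ZNF581 with 8.97, ZNF865 with 8.25 and ZNF317 with 7.80 CPM per kb. Members with a KRAB A box had a median of 0.875 CPM per kb and those without it 3.76.

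The first comparison set the libraries labelled SM2 against those labelled NC, and METTL3 did not pass the test between these groups. Of the 146 members, 12 were higher and 16 lower than in NC, 19.2% in all, where 22.3% of all tested genes were called, 12% higher and 10.3% lower. No called member changed 2-fold or more. The median log2 fold change was -0.11, against -0.00 over all tested genes, and 56 members had a positive value. In 44 members (30.1%) all SM2 libraries lay below all NC libraries and in 17 (11.6%) above, beside 17.2% and 18% of all tested genes. The median without SM2 replicate 3, the library that stood apart, was -0.07. The count of lower members was 8 without NC replicate 1 and 9 without NC replicate 2.

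The second comparison set SM4 against NC. There, 9 members were higher and 4 lower, 8.90% in all, beside 21.2% of all tested genes, of which 11.0% were higher and 10.2% lower. The median was 0.01 and 75 members had a positive value. In 22 members (15.1%) all SM4 libraries lay above all NC libraries and in 18 (12.3%) below, beside 19.1% and 19.3% of all tested genes. Without SM4 replicate 1 the higher count was 5, and without SM2 replicate 3, which enters only through the shared estimate of the spread, the lower count was 8. Both comparisons use the same NC libraries.

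Members were measured less precisely than most genes. The median standard error of a member's log2 fold change in SM2 was 0.118, against 0.0978 over all tested genes and 0.0625 over protein-coding genes at 1 CPM or more. In the latter set 31.9% of genes were called in SM2 and 30.3% in SM4.

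SM4 was then set against SM2 directly, a contrast in which METTL3 differed. The NC libraries are not compared there, but they enter through the shared fit, such as its estimate of the spread. Here 9 members were higher and 6 lower in SM4, 10.3% in all, beside 12.8% of all tested genes, 6.04% higher and 6.76% lower. The median was 0.09 and 104 of 146 members had a positive value. Leaving out SM4 replicate 1 left 5 higher and 3 lower, and leaving out SM4 replicate 3 left 3 lower. Across the 3 comparisons, 36 members were called at least once and 110 never, and the matching share of all tested genes was not worked out.

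**Figure D1:**
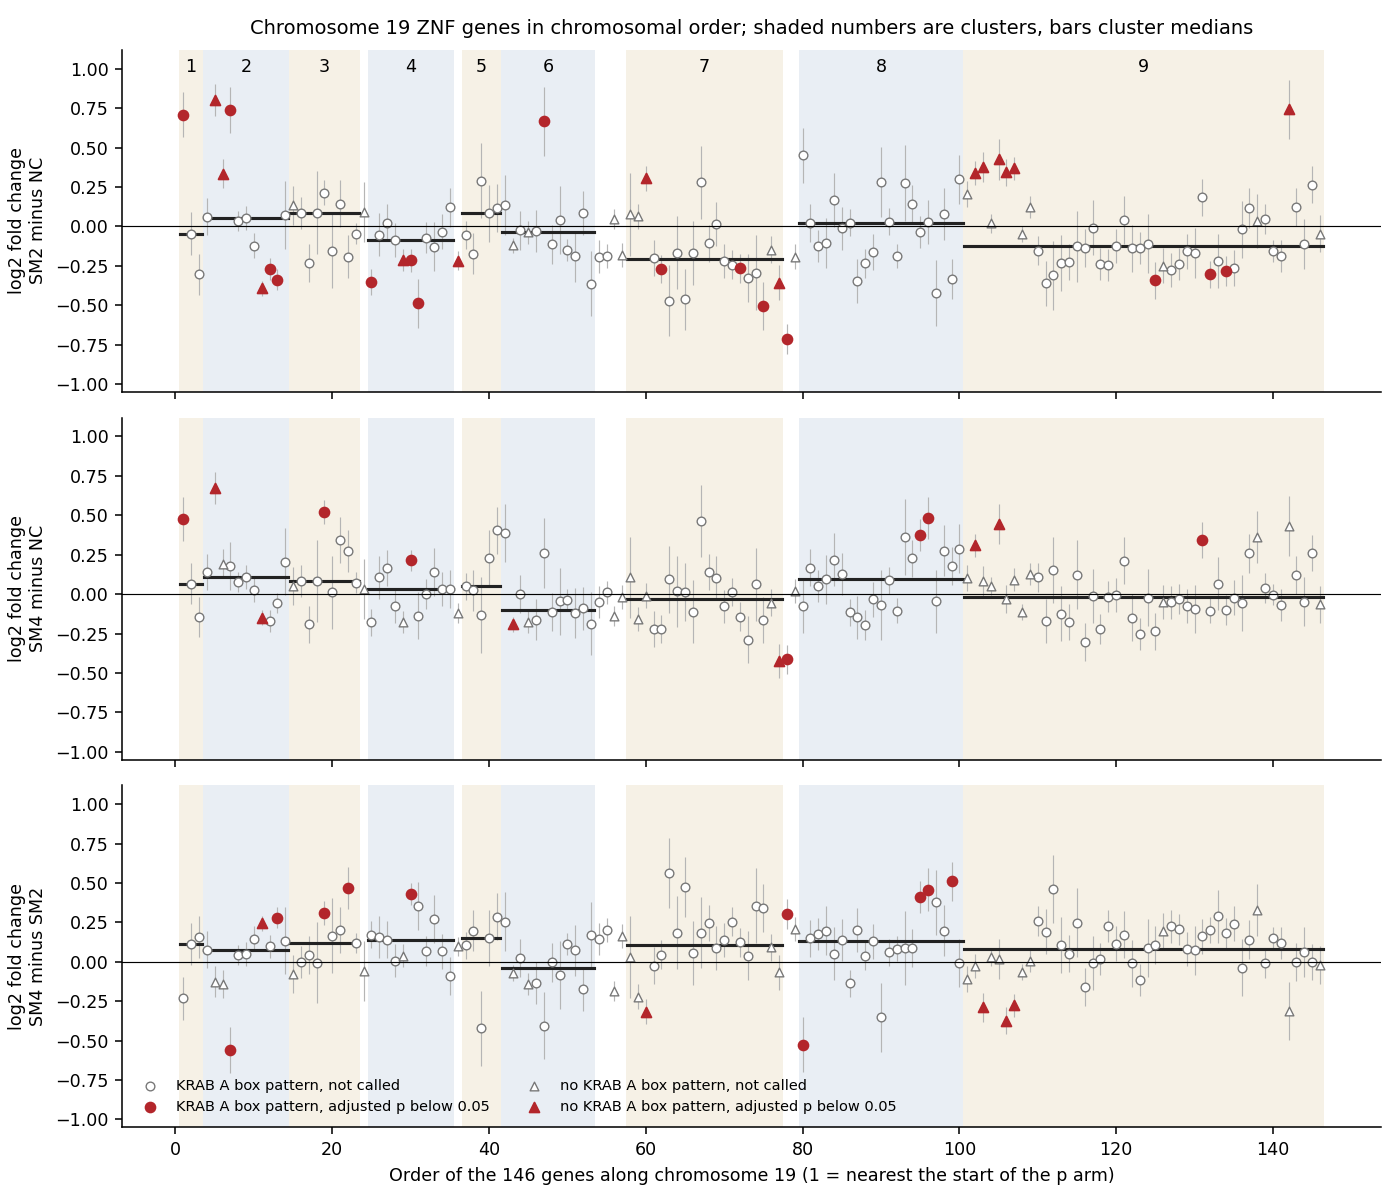
Log2 fold change ± SE (vertical axis) of the 146 members in their order along the chromosome (horizontal axis), for SM2 minus NC, SM4 minus NC and SM4 minus SM2, with filled red symbols for called members, triangles for members without a KRAB A box pattern, shading for clusters and bars for cluster medians. In the upper panel 12 members were called higher and 16 lower, with the largest values at ZNF358 (0.80) and ZNF114 (-0.72), and the bar of cluster 7 lies lowest at -0.21.

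Against NC, 8 members were called in both SM2 and SM4. Of these, 4 were higher in both (ZNF554, ZNF358, ZNF579 and ZNF784), 3 were lower in both (ZNF121, ZNF296 and ZNF114), and ZNF431 was lower in SM2 and higher in SM4. The shared NC libraries by themselves favour calls in the same direction. The share of all tested genes called in both was not worked out, so the count is not a result about the members.

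ZNF358 (ENSG00000198816.7, chr19:7515292-7521025) had the highest log2 fold change of the members against NC, in SM2 and in SM4. It was at 5.93, 7.46 and 7.79 CPM in NC, at 11.8, 12.2 and 13.2 CPM in SM2 and at 11.5, 12.2 and 10.3 CPM in SM4. Every SM2 and SM4 library was above every NC library. The log2 fold change was 0.80 ± 0.103 in SM2 (adjusted p = 7.03e-06) and 0.68 ± 0.102 in SM4 (adjusted p = 4.83e-05), and both calls were kept in all fits that left out a library. SM4 against SM2 gave -0.13 (adjusted p = 0.461). Its exons overlap those of 2 unnamed genes, 1 of them on the same strand.

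ZNF554 (ENSG00000172006.12, chr19:2819868-2836735), a KRAB member, followed at a lower level. It was at 2.08, 2.28 and 2.73 CPM in NC, 3.94, 3.70 and 4.0 CPM in SM2 and 3.50, 3.13 and 3.28 CPM in SM4. The groups did not overlap, with NC lowest and SM2 highest. It rose on the log2 scale by 0.71 ± 0.142 in SM2 (adjusted p = 8.85e-04) and 0.48 ± 0.141 in SM4 (adjusted p = 0.0193). The SM4 call was lost without NC replicate 1 (adjusted p = 0.092), NC replicate 2 (0.077) or SM4 replicate 1 (0.0792).

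ZNF114 (ENSG00000178150.10, chr19:48270081-48287608), a KRAB member with only 3 fingers that stands outside the clusters, had the lowest log2 fold change of the members in SM2. It was at 21.1, 21.6 and 20.8 CPM in NC, 13.1, 10.9 and 14.5 CPM in SM2 and 16.7, 13.9 and 17.2 CPM in SM4. All NC libraries were above the other 6, and SM2 and SM4 overlapped. It gave a log2 fold change of -0.72 ± 0.0948 in SM2 (adjusted p = 1.07e-05) and -0.41 ± 0.0924 in SM4 (adjusted p = 0.00249). Its exons overlap those of ZNF114-AS1 on the other strand, and the strand setting of the counting is not given in the sources used here.

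ZNF121 (ENSG00000197961.12, chr19:9560329-9584504), which matched no KRAB pattern, was at 55.2, 55.7 and 56.8 CPM in NC, 42.4, 42.8 and 42.6 CPM in SM2 and 51.3, 48.4 and 51.6 CPM in SM4. The 3 groups did not overlap, with SM4 between NC and SM2. It fell in SM2 by 0.39 on the log2 scale (SE 0.0490, adjusted p = 4.92e-06). The smaller decrease in SM4 (-0.15, adjusted p = 0.0318) was lost in each of the 6 fits that left out an NC or SM4 library (adjusted p 0.0542 to 0.151). It was also lost with the GC trend removed (0.145), with length and GC trends removed (0.109), with no filter on low counts (0.0962) and with upper-quartile factors (0.0613). The difference between SM4 and SM2 was 0.24 ± 0.0489 (adjusted p = 0.00167) and was kept in every alternative.

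ZNF296 (ENSG00000170684.9, chr19:45071500-45076478), also without a KRAB pattern, was at 7.0, 6.93 and 7.41 CPM in NC, 6.15, 5.74 and 4.83 CPM in SM2 and 5.03, 5.61 and 5.28 CPM in SM4. NC was above both other groups, which overlapped. The log2 fold change was -0.42 ± 0.109 in SM4 (adjusted p = 0.00741) and -0.36 ± 0.110 in SM2 (adjusted p = 0.023). The SM2 call was lost without NC replicate 1 (0.0523), NC replicate 3 (0.0825) or SM2 replicate 3 (0.116).

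ZNF431 (ENSG00000196705.8, chr19:21142024-21196053), a KRAB member with 12 fingers, was the only member called in opposite directions. It was at 17.6, 17.2 and 16.5 CPM in NC, 15.0, 15.0 and 14.1 CPM in SM2 and 20.9, 18.8 and 19.8 CPM in SM4. The groups did not overlap, with SM2 lowest and SM4 highest. Against NC the log2 fold change was -0.22 ± 0.0706 in SM2 (adjusted p = 0.0318) and 0.21 ± 0.0688 in SM4 (adjusted p = 0.0303). The SM2 call was lost without NC replicate 1 (0.106), NC replicate 2 (0.0926), SM2 replicate 2 (0.0548) or SM2 replicate 3 (0.0864). The SM4 call was lost without any 1 of the 3 NC libraries, SM4 replicate 1 or SM4 replicate 3 (adjusted p 0.0509 to 0.150). SM4 against SM2 gave 0.43 ± 0.0697 (adjusted p = 1.96e-04), which every alternative kept.

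**Figure D2:**
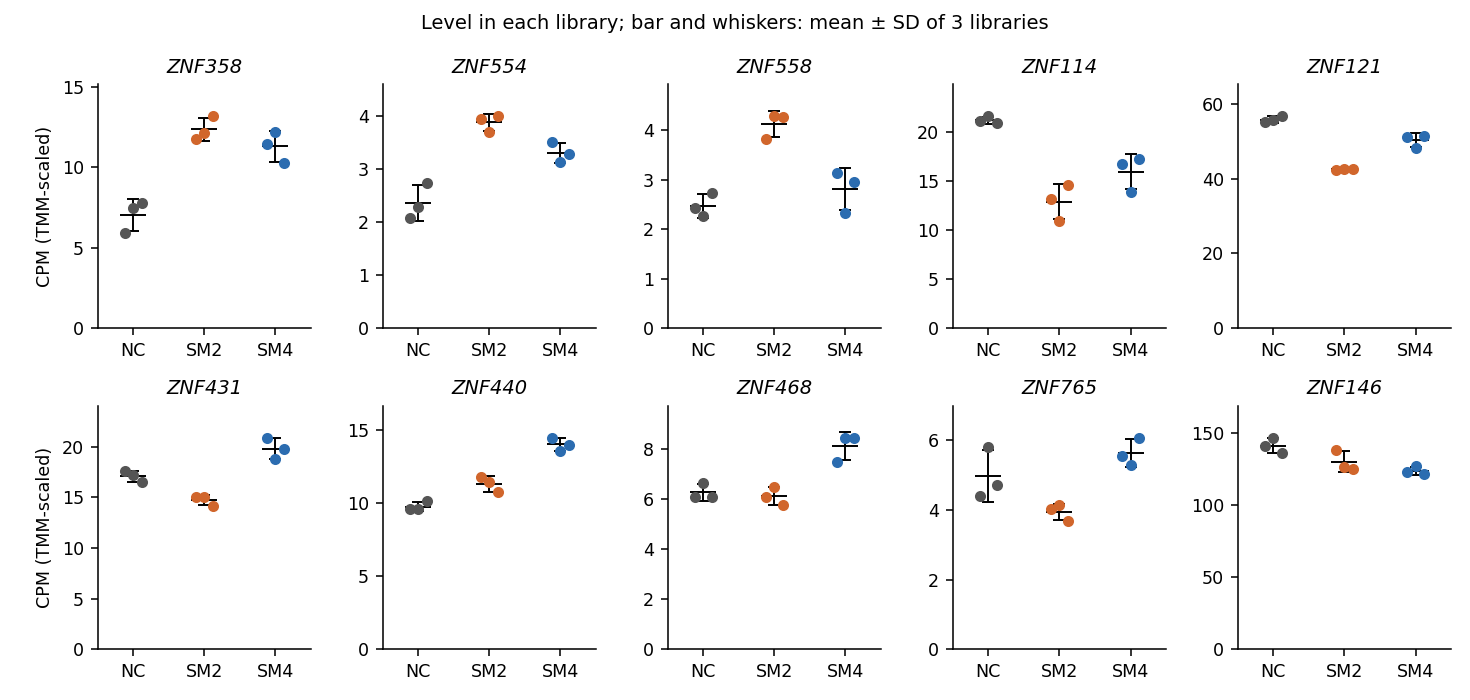
Level in CPM (vertical axis, from 0) of 10 members in each of the 9 libraries (points by group), with bars and whiskers for the mean ± SD of 3 libraries. ZNF358 is higher in SM2 and SM4 than in NC, ZNF114 and ZNF121 are lower, and ZNF431 is lowest in SM2 (14.1 to 15.0 CPM) and highest in SM4 (18.8 to 20.9 CPM).

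Along the chromosome, the 246 symbols were split wherever more than 1 Mb separated neighbours and at the centromere. This gave 9 clusters with at least 3 members, holding 138 members, and 8 scattered members. Clusters 1 to 4 lie on the p arm and clusters 5 to 9 on the q arm. All values by cluster are counts and medians, with no test between clusters.

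Cluster 1 (2.82 to 2.945 Mb, 3 of 5 symbols expressed) held ZNF554, its only called member in SM2 and in SM4. Cluster 2 (7.07 to 9.793 Mb, 11 of 15) was split within itself in SM2. It had 3 members higher (27.3%) and 3 lower (27.3%), with a median of 0.05. The higher ones stand next to each other in the member order, and so do the lower ones. On the chromosome, ZNF358, the first of the higher ones, ends at 7521025 and the next, ZNF414, starts at 8509678. Splitting at gaps of 0.5 Mb in place of 1 Mb puts ZNF358 and ZNF414 in separate blocks. Some of the neighbours named here and below fall outside the rule for named genes and were chosen after their values were seen.

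The higher run of cluster 2 was ZNF358, ZNF414 (log2 fold change 0.33, adjusted p = 0.0105) and ZNF558. ZNF558 (ENSG00000167785.9), a KRAB member, was at 2.42, 2.26 and 2.73 CPM in NC, 3.83, 4.28 and 4.26 CPM in SM2 and 3.14, 2.33 and 2.94 CPM in SM4. SM2 was above both other groups, which overlapped. Its log2 fold change was 0.74 ± 0.148 in SM2 (adjusted p = 9.22e-04) and 0.18 in SM4 (adjusted p = 0.47), and SM4 against SM2 gave -0.56 ± 0.145 (adjusted p = 0.0127, but 0.0761 without SM4 replicate 2). The ZNF414 call was lost without NC replicate 1 (0.061) or SM2 replicate 2 (0.0586).

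The lower run was ZNF121 with its neighbours ZNF561 and ZNF562, both KRAB members. ZNF562 was at 23.8, 22.5 and 21.3 CPM in NC, 17.8, 18.2 and 17.5 CPM in SM2 and 20.9, 22.2 and 21.7 CPM in SM4, so that SM2 lay below both other groups. It fell by 0.34 on the log2 scale in SM2 (adjusted p = 6.63e-04) and was higher in SM4 than in SM2 by 0.28 (adjusted p = 0.00587). ZNF561 changed by -0.27 in SM2 (adjusted p = 0.00868, 0.054 without SM2 replicate 2).

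Cluster 3 (11.48 to 12.64 Mb, 9 of 25 expressed) had no called member in SM2, and its medians were 0.08 in SM2 and 0.08 in SM4. ZNF440 (ENSG00000171295.13, chr19:11814273-11835216), a KRAB member, was at 9.58, 9.56 and 10.1 CPM in NC, 11.8, 11.4 and 10.8 CPM in SM2 and 14.5, 13.6 and 14.0 CPM in SM4. The groups did not overlap and SM4 was highest. It rose in SM4 (0.52 ± 0.0780, adjusted p = 4.2e-05, kept in all alternatives), while SM2 gave 0.21 (adjusted p = 0.0617). ZNF440 was also higher in SM4 than in SM2 (0.31, adjusted p = 0.0102, 0.0579 without SM4 replicate 1). ZNF136, the other member called in SM4 against SM2 (0.47, adjusted p = 0.0231), lost that call on removing SM2 replicate 2, SM2 replicate 3, SM4 replicate 1 or SM4 replicate 3 (adjusted p 0.0627 to 0.102).

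Cluster 4 (19.67 to 24.13 Mb), beside the centromere, had 37 symbols, of which 11 reached 1 CPM. In SM2, 4 of these (36.4%) were lower and none higher, with a median of -0.09. ZNF101 changed by -0.35 (adjusted p = 0.0043), ZNF714 by -0.22 (0.0332), ZNF431 by -0.22 and ZNF708 by -0.49 (0.0256), the last 3 standing side by side. The library medians of cluster 4, each the median over its members of the log2 difference from the NC mean, were -0.11, -0.17 and -0.25 in SM2, 0.04, 0.04 and -0.05 in NC and 0.05, 0.05 and 0.05 in SM4. SM2 lay below the other groups. The ZNF714 call was lost without NC replicate 1 (0.129), NC replicate 2 (0.0738) or SM2 replicate 3 (0.147), and the ZNF708 call whenever replicate 1 or 2 of NC or of SM2 was left out (0.0527 to 0.115).

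Cluster 5 (34.68 to 34.96 Mb) was expressed at all 5 of its symbols and had no called member in any comparison, with medians of 0.08 in SM2 and 0.05 in SM4. Against NC, its largest change was that of ZNF792 in SM4 (0.40, adjusted p = 0.0588). Cluster 6 (36.18 to 37.82 Mb, 12 of 26) held ZNF146, the only member called there in SM4. In SM2 its only call was ZNF461, at 0.912, 1.73 and 1.13 CPM in NC and 1.79, 2.06 and 2.17 CPM in SM2, a low gene whose groups were apart by less than 0.1 CPM. Its log2 fold change of 0.67 (adjusted p = 0.0328) lost the call without NC replicate 1 (0.154), NC replicate 3 (0.116), SM2 replicate 2 (0.0792) or SM2 replicate 3 (0.0749).

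Cluster 7 (43.53 to 45.08 Mb, 20 of 24 symbols) had the lowest SM2 median of the 9 clusters, -0.21, and it ranged from -0.23 to -0.16 over all alternative fits. Only 5 of its 20 members had a positive value in SM2. In 9 (45%) all SM2 libraries lay below all NC libraries, beside 17.2% of all tested genes. The library medians were -0.16, -0.21 and -0.24 in SM2, -0.06, -0.07 and -0.07 in SM4 and 0.00, 0.00 and -0.02 in NC. SM2 was below SM4 and SM4 below NC. Called lower in SM2 were ZNF45, ZNF227, ZNF112 and ZNF296 (20% of its members), and called higher was ZNF428 (5%). In all 25% were called, beside 22.3% of all tested genes.

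ZNF112, a KRAB member, was at 3.28, 3.93 and 3.45 CPM in NC, 2.32, 2.64 and 2.56 CPM in SM2 and 2.68, 3.72 and 3.14 CPM in SM4. SM2 lay below both other groups, which overlapped. Its SM2 fold change was -0.50 ± 0.152 (adjusted p = 0.0199, and 0.103 without NC replicate 2 or 0.060 without SM2 replicate 1). ZNF45 (-0.27, adjusted p = 0.0367) was no longer called when NC replicate 1, NC replicate 3, SM2 replicate 2 or SM2 replicate 3 was removed (0.0783 to 0.185). ZNF227 (-0.27, adjusted p = 0.0443) lost it without any NC or SM2 library and without SM4 replicate 1 or 3 (0.052 to 0.146). Only 3 of 11 other alternatives kept that call, which was lost with DESeq2 (0.0555), the replicate block (0.051), only the 6 libraries compared (0.0589), upper-quartile factors (0.0547) and no filter on low counts (0.116).

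ZNF428, a short protein with 1 finger and no KRAB box, was at 10.7, 11.8 and 10.7 CPM in NC, 12.9, 13.7 and 14.3 CPM in SM2 and 10.8, 11.2 and 10.9 CPM in SM4. SM2 was above the other groups, which overlapped. It changed by 0.31 ± 0.0793 in SM2 (adjusted p = 0.00735) and -0.32 ± 0.0788 in SM4 against SM2 (adjusted p = 0.00968). Its exons overlap those of SRRM5 on the other strand.

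Cluster 8 (51.57 to 53.58 Mb, 21 of 39 symbols) consisted of KRAB members alone. It had no call in SM2 against NC, with a median of 0.02, and 2 higher members (9.52%) in SM4, with a median of 0.09. These were the neighbours ZNF468 and ZNF320. ZNF468 was at 6.07, 6.64 and 6.10 CPM in NC, 6.08, 6.49 and 5.77 CPM in SM2 and 7.48, 8.46 and 8.46 CPM in SM4, so that SM4 was above all other libraries. It rose in SM4 against NC (0.38 ± 0.0991, adjusted p = 0.009) and was higher in SM4 than in SM2 (0.41 ± 0.0998, adjusted p = 0.00787). Its exons overlap those of the neighbouring ZNF28 on the same strand, so the count may depend on how shared reads were assigned.

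ZNF320 was at 4.10, 3.29 and 4.05 CPM in NC, 4.38, 3.68 and 3.60 CPM in SM2 and 5.92, 4.59 and 5.50 CPM in SM4, with SM4 above the rest. It was higher by 0.48 against NC (adjusted p = 0.0125) and 0.46 against SM2 (adjusted p = 0.028). The first call was lost without NC replicate 2 (0.090) or SM4 replicate 1 (0.0794), and the second on removing SM2 replicate 2, SM2 replicate 3, SM4 replicate 1 or SM4 replicate 3 (0.0785 to 0.155).

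ZNF765, further along cluster 8, was at 4.40, 5.81 and 4.71 CPM in NC, 4.03, 4.14 and 3.70 CPM in SM2 and 5.54, 5.30 and 6.08 CPM in SM4. NC overlapped SM4 and lay above SM2. It was not called against NC in SM2 (-0.34, adjusted p = 0.0631) or SM4 (0.18, 0.356), but SM4 was above SM2 by 0.51 ± 0.124 (adjusted p = 0.00813). ZNF175, at the start of the cluster, was lower in SM4 than in SM2 (-0.53, adjusted p = 0.0492), which 7 of the 9 fits with a library removed did not call (0.051 to 0.198).

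**Figure D3:**
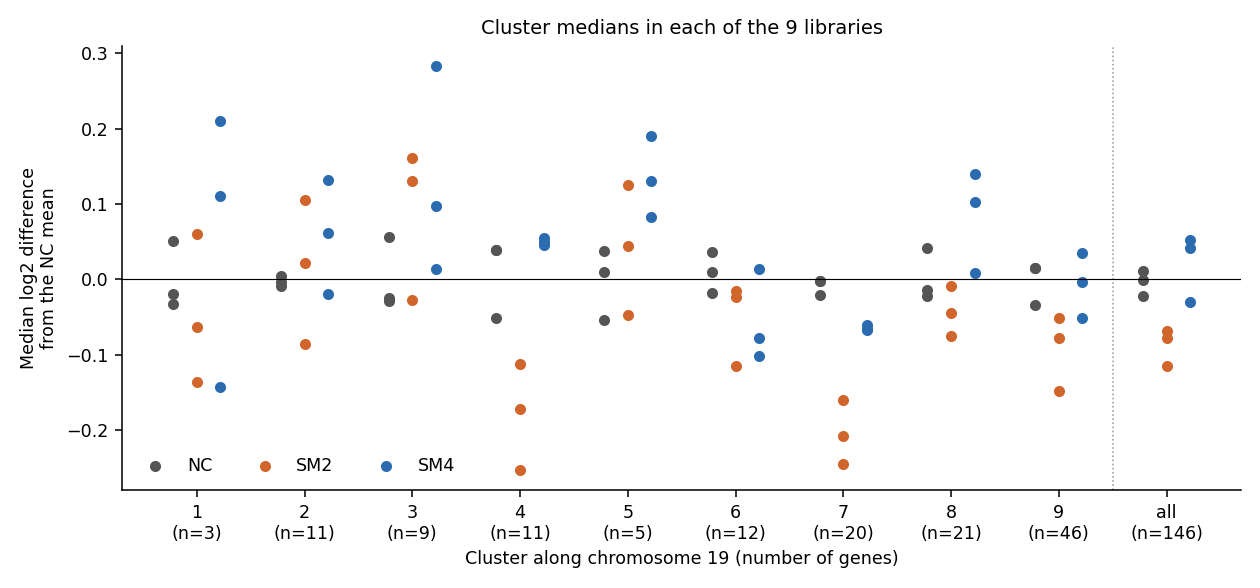
Median over the members of each cluster of the log2 difference from the NC mean (vertical axis), in each of the 9 libraries (points by group), for clusters 1 to 9 and for all 146 members (horizontal axis). In clusters 4 and 7 the 3 SM2 points lie below all NC and SM4 points, at -0.25 to -0.11 and at -0.24 to -0.16, and over all members SM2 lies at -0.11 to -0.07.

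Cluster 9 (55.48 to 58.48 Mb), the largest, held 46 members of 59 symbols and lies near the end of the q arm. In SM2, 6 of its members were higher and 3 lower, with a median of -0.13. Splitting at gaps of 0.5 Mb in place of 1 Mb divided it into a first stretch of 9 members and a second of 37, whose medians had opposite signs. The first had a median of 0.34 in SM2, with 5 members higher (55.6%) and none lower. The second had a median of -0.15, with 1 higher (2.70%) and 3 lower (8.11%). In SM4 the medians were 0.09 and -0.03, and in SM4 against SM2 they were -0.07 and 0.12.

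The stretches also differed in sequence. None of the 9 members of the first matched the KRAB A box pattern, and their transcripts held 61.8% to 70.9% GC. In the second, 33 of 37 matched it, and the median GC content was 44.9%. The summed level of the first stretch was 188.2 to 194.8 CPM in NC, 202.9 to 210.7 CPM in SM2 and 189.3 to 200.5 CPM in SM4. That of the second was 229.2 to 241.8 CPM in NC, 212.8 to 218.4 CPM in SM2 and 226.0 to 236.0 CPM in SM4. SM2 did not overlap NC in either, above it in the first and below it in the second.

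The members called higher in SM2 in the first stretch were ZNF579, ZNF524, ZNF784, ZNF580 and ZNF581. ZNF581 was at 12.8, 13.9 and 12.7 CPM in NC, 17.5, 16.6 and 16.7 CPM in SM2 and 13.6, 14.5 and 13.8 CPM in SM4. ZNF580 was at 10.4, 9.96 and 10.7 CPM in NC, 13.7, 13.5 and 12.2 CPM in SM2 and 9.75, 9.54 and 11.2 CPM in SM4. In both, SM2 was above all other libraries.

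The log2 fold change in SM2 was 0.37 ± 0.0729 for ZNF581 (adjusted p = 8.27e-04) and 0.34 ± 0.0867 for ZNF580 (adjusted p = 0.00626). Against SM2, SM4 was lower by -0.28 for ZNF581 (adjusted p = 0.0136) and -0.37 for ZNF580 (adjusted p = 0.0054). The former was lost without SM4 replicate 1 (0.0774) or 3 (0.0533). These 2 genes overlap each other and CCDC106 on the same strand, so their counts may share reads.

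ZNF579 and ZNF784 were higher in SM4 too. ZNF579 was at 14.7, 16.4 and 17.4 CPM in NC, 18.8, 21.1 and 21.5 CPM in SM2 and 19.8, 19.9 and 20.7 CPM in SM4, with NC below the other groups. Its log2 fold change was 0.34 in SM2 (adjusted p = 0.00246) and 0.31 in SM4 (adjusted p = 0.00467). For ZNF784 the values were 0.43 (adjusted p = 0.0215) and 0.44 (adjusted p = 0.0166), and both calls were lost without NC replicate 2 (0.103 and 0.0901), the first also without SM2 replicate 2 (0.147) and the second without SM4 replicate 3 (0.0635).

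With the trend of counts on GC content removed library by library, the first stretch had 1 higher and 2 lower calls in SM2, and its median was 0.14. The calls lost in this way were those of ZNF579 (adjusted p = 0.0634), ZNF524 (0.237), ZNF784 (0.124) and ZNF580 (0.309), while ZNF581 was called in every alternative. The SM4 calls of ZNF579 (0.0615) and ZNF784 (0.0732) were lost too, as was that of ZNF121 in cluster 2. Elsewhere, removing the GC trend ended the SM2 calls of ZNF414 (0.0662), ZNF431 (0.129), ZNF714 (0.138), ZNF507 (0.0624), ZNF45 (0.0562), ZNF227 (0.0819), ZNF530 (0.0536) and ZNF587 (0.0656). With length and GC trends removed together, ZNF428 (0.053) and ZNF837 (0.0502) were also no longer called. With only the 6 libraries compared, the SM2 calls of ZNF45 (0.0526), ZNF461 (0.0518), ZNF530 (0.0558) and ZNF714 (0.0566) were lost, and with no filter on low counts those of ZNF431 (0.0687 in SM2 and 0.0539 in SM4) and ZNF530 (0.058). Upper-quartile factors ended those of ZNF530 (0.052) and ZNF587 (0.0604). Over all alternative fits, the SM2 medians of clusters 4, 7 and 9 and of the second stretch stayed below 0, that of the first stretch stayed above 0, and those of clusters 1, 2, 3, 5, 6 and 8 took both signs. In SM4, clusters 2, 3, 5 and 8 stayed above 0, clusters 6 and 7 and the second stretch below it, and the rest took both signs. In SM4 against SM2, the medians of cluster 6 and of the first stretch were below 0 in every fit, and those of the other 8 clusters and of the second stretch were above it.

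In the second stretch the higher gene was ZNF837, without a KRAB pattern and with 70.8% GC, at 1.37, 1.45 and 1.59 CPM in NC, 2.36, 2.18 and 2.85 CPM in SM2 and 1.86, 1.68 and 2.46 CPM in SM4. NC was below both other groups. Its fold change was 0.74 ± 0.188 in SM2 (adjusted p = 0.00639) and 0.43 in SM4 (adjusted p = 0.119). The lower genes were ZNF530 (-0.34, adjusted p = 0.0413), ZNF587B (-0.30, 0.0105) and ZNF587 (-0.28, 0.0424), all KRAB members. The ZNF587B call was lost without SM2 replicate 2 (0.0598). That of ZNF587 was lost without any 1 of the NC libraries, SM2 replicate 1 or SM2 replicate 3 (0.0669 to 0.147), and that of ZNF530 on removing replicate 1 or 2 of NC, replicate 2 or 3 of SM2 or SM4 replicate 1 (0.0535 to 0.179). Members of the ZNF587 family are close copies with shared exons, so their counts are uncertain. ZNF552, higher in SM4 (0.34, adjusted p = 0.0354), was not called once NC replicate 1, NC replicate 3, SM4 replicate 1 or SM4 replicate 3 was removed (0.0585 to 0.180).

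Of the scattered members, ZNF507 was lower in SM2 along with ZNF114. It was at 53.3, 47.8 and 49.1 CPM in NC, 45.9, 44.5 and 38.7 CPM in SM2 and 46.5, 45.4 and 46.3 CPM in SM4, with NC above both. The SM2 change was -0.22 ± 0.0620 (adjusted p = 0.0142), lost without NC replicate 1 (0.102) or SM2 replicate 3 (0.0537).

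Adjacent members were also set beside each other, as a description only. Over the 129 pairs of adjacent members within a cluster, Spearman's rho of their log2 fold changes was 0.36 in SM2, 0.139 in SM4 and 0.341 in SM4 against SM2. The pairs share libraries, base composition and, for near copies, possibly reads. Of the 28 members called in SM2, 14 stood in runs of 2 or 3 neighbours called the same way, against 2 of 13 in SM4 and 4 of 15 in SM4 against SM2. How many would do so without regard to position was not worked out. Of the 14, ZNF414, ZNF714, ZNF431, ZNF579, ZNF524, ZNF784 and ZNF580 lost their SM2 call with the GC trend removed.

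By domain, the 116 KRAB members held 3 of the 12 higher and 12 of the 16 lower calls in SM2, with a median of -0.12. These calls were 2.59% and 10.3% of the KRAB members, beside 12% and 10.3% of all tested genes. The 30 members without the pattern held 9 higher (30%) and 4 lower (13.3%), with a median of 0.055. In SM4 the medians were 0.01 and 0.00, with 6 higher and 1 lower call in KRAB members and 3 higher and 3 lower calls in the rest. These calls were 5.17% and 0.862% of KRAB members and 10% and 10% of the rest, beside 11.0% and 10.2% of all tested genes. In SM4 against SM2, KRAB members had a median of 0.12 with 8 higher (6.90%) and 2 lower (1.72%) calls. The others had -0.06 with 1 higher (3.33%) and 4 lower (13.3%), beside 6.04% and 6.76% of all tested genes. With the GC trend removed, the SM2 median of KRAB members was -0.08 and that of the others turned to -0.04, with 4 in place of 9 higher calls, and with length and GC trends removed 2 higher calls were left. This split was chosen after the values were seen.

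Domain and base composition went together. The median GC content was 42.5% in KRAB members and 62.4% in the others, and 61.0% in the other protein-coding genes of the chromosome. Over all 146 members, Spearman's rho between GC content and log2 fold change was 0.26 in SM2, 0.08 in SM4 and -0.27 in SM4 against SM2. Within KRAB members it was 0.03 in SM2, and within the 30 others 0.58. Over the 12079 protein-coding genes it was 0.30 in SM2 and 0.26 in SM4. With members split in 3 groups by GC content, the 49 richest (45.0% to 70.9%) held 10 higher (20.4%) and 4 lower (8.16%) calls in SM2. Each of the other groups held 1 higher (2.04% and 2.08%) and 6 lower (12.2% and 12.5%). Of all tested genes, 12% were higher and 10.3% lower.

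**Figure D4:**
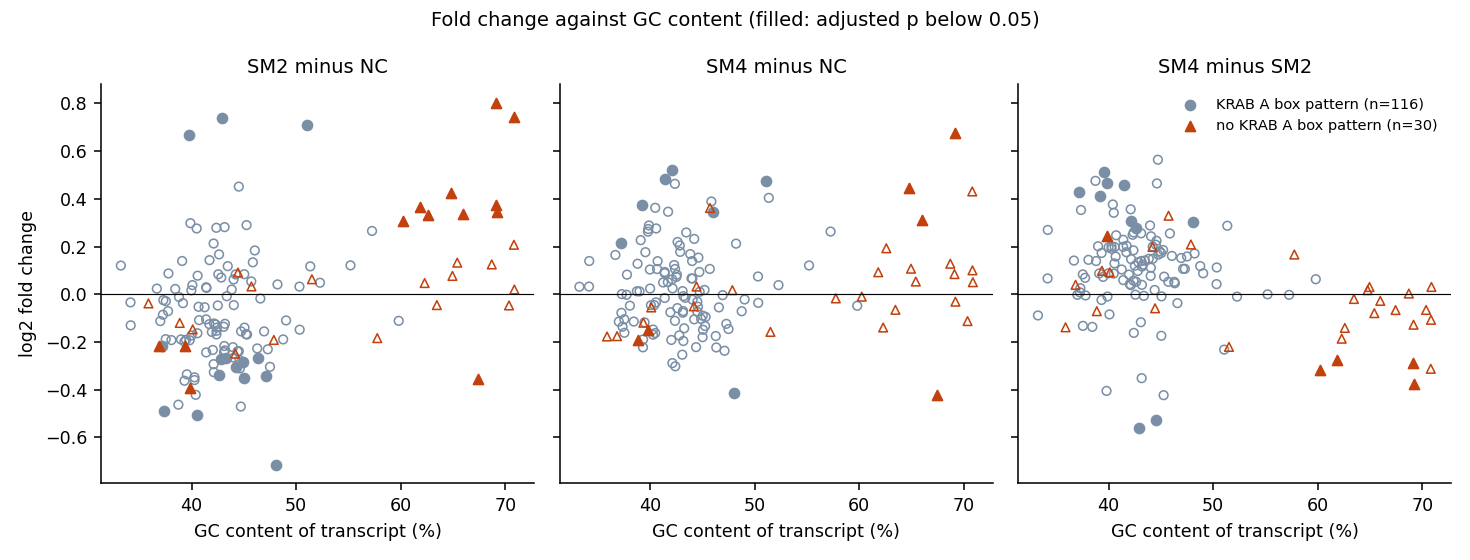
Log2 fold change (vertical axis) against the GC content of the transcript in percent (horizontal axis) for each member in the 3 comparisons, with circles for the 116 KRAB members, triangles for the 30 others and filled symbols for called members. In SM2 minus NC, 9 filled triangles lie between 0.31 and 0.80 on the GC-rich side, while the KRAB members lie at 33.2% to 59.8% GC with a median of -0.12.

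The members had long last exons, in which nearly all fingers are encoded, with a median of 3428 bases against 1668 over protein-coding genes. In SM2 rho with last exon length was -0.26 over members, -0.06 within KRAB members and -0.60 within the others. The letters GGACT, a common context of N6-methyladenosine, occurred a median of 0.786 times per kb of member transcript, against 0.926 per kb over protein-coding genes. The letters show no methylation by themselves.

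Other gene sets were counted in the same fit. Of 211 ZNF genes on other chromosomes, 16 (7.58%) were higher and 23 (10.9%) lower in SM2, with a median of -0.05. In SM4, 19 (9.0%) were higher and 15 (7.11%) lower, with a median of -0.00. Among their 78 KRAB genes the SM2 median was -0.10. The 681 other protein-coding genes of chromosome 19, intermingled with the members, held 185 higher (27.2%) and 34 lower (4.99%) calls in SM2 (median 0.08). In SM4 they held 156 higher (22.9%) and 42 lower (6.17%) calls (median 0.06), and the others were not called. Of protein-coding genes at 1 CPM or more, 16.6% were higher and 15.2% lower in SM2, and 15.35% and 14.99% in SM4. Of the members, 8.22% were higher and 10.96% lower in SM2, and 6.16% and 2.74% in SM4. No test between the sets was made.

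A list of 25 genes of the silencing machinery that KRAB zinc finger proteins recruit was read in the same fit. TRIM28, the corepressor, was at 524.4, 556.6 and 550.0 CPM in NC, 568.8, 549.1 and 538.9 CPM in SM2 and 523.8, 553.5 and 518.7 CPM in SM4. The groups overlapped, and the log2 fold changes were 0.02 (adjusted p = 0.764) and -0.03 (0.672). SETDB1 was at 24.6, 26.01 and 22.7 CPM in NC, 20.4, 23.4 and 22.8 CPM in SM2 and 24.02, 22.5 and 23.3 CPM in SM4, also overlapping, with -0.14 (adjusted p = 0.176) and -0.07 (0.557).

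Of these partner genes, 4 were lower and none higher in SM2, and 3 were higher and 1 lower in SM4. This was 16% of the list in each, beside 22.3% and 21.2% of all tested genes. The only one called in both was SUV39H2, a histone H3 lysine 9 methyltransferase, at 23.3, 24.5 and 23.3 CPM in NC, 18.7, 19.8 and 18.4 CPM in SM2 and 19.8, 20.97 and 19.5 CPM in SM4. NC was above both other groups, which overlapped. It fell by 0.32 on the log2 scale in SM2 (adjusted p = 8.85e-04) and by 0.24 in SM4 (adjusted p = 0.00987).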

How the data were processed

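Poly(A) RNA of 9 OVCAR5 libraries (3 each of NC, SM2 and SM4) was measured. The deposited table holds raw counts per gene, which the authors made with fastp, HISAT2 and featureCounts of Subread on GRCh38, per the labels and methods; tool versions, annotation, strand setting and treatment of shared reads are not given in the sources used here, and labels and methods name different library kits. Identifiers were matched without version to GENCODE v44 (60463 of 60649). Genes passing edgeR's filterByExpr (19674) were fitted with edgeR 4.0.16 in R 4.3.3 (TMM scaling, quasi-likelihood F test over all 9 libraries, group only, Benjamini-Hochberg). CPM values are TMM-scaled. A standard error is the log2 fold change divided by the root of F. GC content, exons, C2H2 fingers (C, 2 to 4 residues, C, 12, H, 3 to 5, H) and KRAB A boxes come from 1 canonical transcript per gene and its translation with Biopython 1.88. Totals of 44103272 to 63693728 counts set the precision, and intervals cover the spread between libraries only.

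The members and lists were chosen with earlier results of these data known. Named genes were METTL3, the 5 called members with the highest and the 5 with the lowest fold change in each comparison, the 5 highest in CPM and in CPM per kb, members called in opposite directions, the member of each cluster with the largest absolute mean change against NC, genes next to 1 CPM, and TRIM28, SETDB1 and partner genes called in both comparisons with NC. The alternatives were DESeq2 1.42.0, other size factors and filters, length and GC trends removed, the replicate number as a block, other membership limits and each library left out. The replicate numbers were not taken as pairs, which does not show that the libraries were unpaired. The same fit was also run on simulated counts with known changes, and its outcome is not given here.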

Additional observations from a re-analysis of the deposited data

Results flagged for a closer look

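The test of SM4 against SM2, which asks whether the changes of the libraries labelled SM2 and SM4 differ, called 14 of the named members, and their log2 fold changes are given here as values. ZNF765 was at 0.51, ZNF136 at 0.47, ZNF320 at 0.46, ZNF431 at 0.43, ZNF468 at 0.41, ZNF440 at 0.31, ZNF114 at 0.30 and ZNF121 at 0.24, all higher in SM4. ZNF558 was at -0.56, ZNF175 at -0.53, ZNF580 at -0.37, ZNF428 at -0.32, ZNF524 at -0.29 and ZNF581 at -0.28, all lower in SM4. The higher 8 were KRAB members except ZNF121, and of the lower 6 only ZNF558 and ZNF175 were.

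Among these, the calls of ZNF114 and ZNF524 were the least stable not yet described. That of ZNF114 was lost without NC replicate 2 or 3, SM2 replicate 1 or 2, or SM4 replicate 1 or 3 (adjusted p 0.0535 to 0.188), and that of ZNF524 without any library but SM2 replicate 1 (0.051 to 0.222). With only the 6 libraries compared, both were lost (0.0756 and 0.072).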

How the results depend on the processing

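In SM2 the higher count (12) was 7 with length and GC trends removed, 5 among members without exonic overlap and 9 to 14 without single libraries. The lower count (16) was 5 at an adjusted p below 0.01, 8 without overlap and 8 to 16 without single libraries. The SM2 median was -0.0698 with the GC trend, -0.0701 with length and GC trends and -0.0728 with replicate block and both trends removed, -0.0545 at a membership minimum of 0.5 CPM, -0.0498 without overlap and -0.1079 to -0.0688 without single libraries. In SM4 the higher count (9) was 4 at 0.01, 5 without overlap and 5 to 10 without single libraries. The lower count (4) was 9 with only the 6 libraries compared, 2 without overlap and 3 to 8 without single libraries. In SM4 against SM2 the higher count (9) was 5 at 0.01, 4 without overlap and 5 to 10 without single libraries, and the lower count (6) was 2 at 0.01, 0 without overlap and 3 to 5 without single libraries. A stricter threshold and the 60 members without overlap give fewer calls by construction, and the other causes were not tested. The medians in SM4 and in SM4 against SM2 moved by less than the spread between libraries in every alternative. DESeq2 gave 12 higher and 15 lower members in SM2 and 9 higher and 4 lower in SM4. Of 42 called values of named genes, 18 kept their call in every alternative and 0 changed sign. Same-numbered libraries correlated at -0.053 to 0.0453 in their deviations from the group means, so the numbers were not taken as pairs. The replicate block alone gave 12 higher and 15 lower members in SM2 and 9 higher and 4 lower in SM4.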

Other observations

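Of the 100 chromosome 19 ZNF genes below 1 CPM, 28 were tested and 4 were called. These, ZNF429, ZNF91, ZNF585A and ZNF525, were chosen after their values were seen, and their raw counts are small. Of the 28, 3 (10.7%) were called in SM2 and 3 (10.7%) in SM4, beside 22.3% and 21.2% of all tested genes. In SM4 against SM2, 2 (7.14%) were called, beside 12.8%.

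ZNF429 (ENSG00000197013.10, chr19:21496682-21556270), in cluster 4, had 8, 4 and 7 counts in NC, 34, 65 and 65 in SM2 and 79, 53 and 51 in SM4. Every SM2 and SM4 library held more counts than every NC library.

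ZNF91 (ENSG00000167232.14, chr19:23304991-23395471), also in cluster 4 and known to bind and silence SVA retrotransposons, had 4, 5 and 0 counts in NC, 25, 33 and 29 in SM2 and 41, 41 and 21 in SM4. NC was again below both other groups. No NC library reached the filter's minimum for either gene, so both entered the test only through SM2 and SM4, where they are high. A difference from NC follows from that entry, and no fold change or p-value is given as support.

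ZNF585A (ENSG00000196967.11), in cluster 6 and neighbour to its near copy ZNF585B, had 18, 14 and 19 counts in NC, 20, 67 and 53 in SM2 and 18, 28 and 19 in SM4. It was higher in SM2 (1.52 ± 0.391, adjusted p = 0.00702), with SM2 replicate 1 close to NC, and lower in SM4 than in SM2 (-1.35, adjusted p = 0.0214). The first call was lost without SM2 replicate 2 (0.0741) and the second without SM2 replicate 2 (0.165), SM4 replicate 1 (0.101) or SM4 replicate 3 (0.0628). ZNF525 (ENSG00000203326.12), in cluster 8, had 16, 33 and 34 counts in NC, 46, 29 and 31 in SM2 and 91, 86 and 57 in SM4. It was higher in SM4 than in NC (1.34 ± 0.283, adjusted p = 0.00152) and than in SM2 (0.86, adjusted p = 0.042), and SM4 lay above all other libraries. The difference from SM2 was lost on removing SM2 replicate 2 or 3 or any SM4 library (adjusted p 0.0502 to 0.171).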
